A study of Rattus norvegicus with 56 samples.

Results

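Expression of 9 genes linked to Alzheimer's disease was followed in rat hippocampus and parietal cortex: App, Bace1, Adam10, Sorl1, Bin1, Apoe, Clu, Mapt and Ptk2b. They are 9 of 16581 genes that the array probes name through RefSeq, and 11 probes represent them, App and Mapt having 2 each. The animals were 24 male Long-Evans rats, young (6 to 7 months) or aged (26 to 27 months), given either intermittent theta burst stimulation (iTBS, bursts of magnetic pulses from a coil over the head) or a sham procedure with the coil away from the head. All rats, sham included, were sedated (isoflurane and dexmedetomidine, then a reversing agent), and tissue under the coil was taken 48 h later. Aged rats were labelled unimpaired (AU) or impaired (AI), per the labels from a water maze task, which the study's methods describe for another of its experiments. The methods also name fewer rats than the labels, and the labels were followed. Sham groups were Y_Sham (4), AU_Sham (4) and AI_Sham (4), stimulated ones Y_iTBS (4), AU_iTBS (5) and AI_iTBS (3), and each rat gave both regions. The labels name no transgene and no induced amyloid or tau pathology in any group.

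Amyloid precursor protein, encoded by App, is a membrane protein cut along competing routes. Cleavage first by the alpha-secretase Adam10 prevents formation of amyloid beta, whereas cleavage first by the beta-secretase Bace1 opens the way to it. Sorl1 is a sorting receptor that returns the precursor from endosomes, and Bin1 bends membranes during endocytosis and recycling. Apoe and Clu are secreted lipid carrier proteins made largely by astrocytes, Mapt encodes the microtubule-binding protein tau, and Ptk2b encodes a calcium-responsive tyrosine kinase of synapses. Several of these loci are known from human genetic studies of late-onset disease.

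All 11 probes were well above background in 24 of 24 animals in both regions, and none was saturated. Values are normalized log2 signal, on which 0 is the mean of an array, so a negative value is a signal below that mean. Both regions of 15 animals were scanned on 1 day (the first scan batch). For the other 9 animals all 9 cortex arrays were scanned on a second day and 8 of 9 hippocampus arrays on a further day, so that region and scan day can hardly be told apart in them. Slide and region were also nearly confounded, since 2 of 7 slides held both. One technical repeat, of the AI_iTBS 2 cortex, was left out because it correlated at -0.0332 with its own first array and at 0.588 with AI_Sham 2 over 300 variable probes, against 0.448 to 0.702 for the other 6 repeats with their own first arrays. Those 6 repeats differed from the first array by a median of 0.027 (Adam10) to 0.18 (Clu), and at most by 0.45 (Apoe). The tissue labels fitted the region markers, with the mean of the cortex list lower in hippocampus in 24 of 24 animals and that of the hippocampus list higher in 24 of 24, although 1 hippocampal marker, Prox1, was higher in only 9.

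The spread of levels over the animals differed between genes. In hippocampus the App lead probe (the brighter of its 2) read 9.11 at the lowest, 9.35 at the median and 9.84 at the highest over 24 animals, and in cortex 9.04, 9.62 and 10.12. Bace1 ran from -1.72 through -0.41 to 0.47 in hippocampus and from -2.07 through -0.27 to 0.26 in cortex, among the widest ranges of the 9. Adam10, cutting the same substrate, ran from 1.17 through 1.56 to 1.77 and from 1.08 through 1.63 to 2.04. Animals of the same group differed in Bace1 by a pooled SD of 0.44 in hippocampus and 0.48 in cortex, and in Adam10 by 0.16 and 0.20, so a change of given size was harder to see in Bace1.

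For the trafficking genes, Sorl1 ran from 4.91 through 5.25 to 5.67 in hippocampus and from 4.32 through 4.85 to 5.50 in cortex. Bin1 ran from 7.47 through 7.91 to 8.47 and from 7.42 through 7.88 to 8.19. Apoe, the main lipid carrier of the brain, lay between 9.89 and 11.3 in hippocampus with a median of 10.7, and between 10.2 and 11.2 in cortex with the same median. Clu lay between 8.71 and 9.76 with a median of 9.31 in hippocampus and between 8.46 and 9.63 with a median of 9.09 in cortex. Tau is one of the major proteins of axons. Its lead probe lay between 8.66 and 9.35 in hippocampus and between 8.66 and 9.41 in cortex. Ptk2b had the widest spread between animals, from 5.39 through 6.81 to 7.64 in hippocampus and from 4.79 through 5.85 to 7.15 in cortex (pooled SD 0.63 and 0.52).

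**Figure D1:**
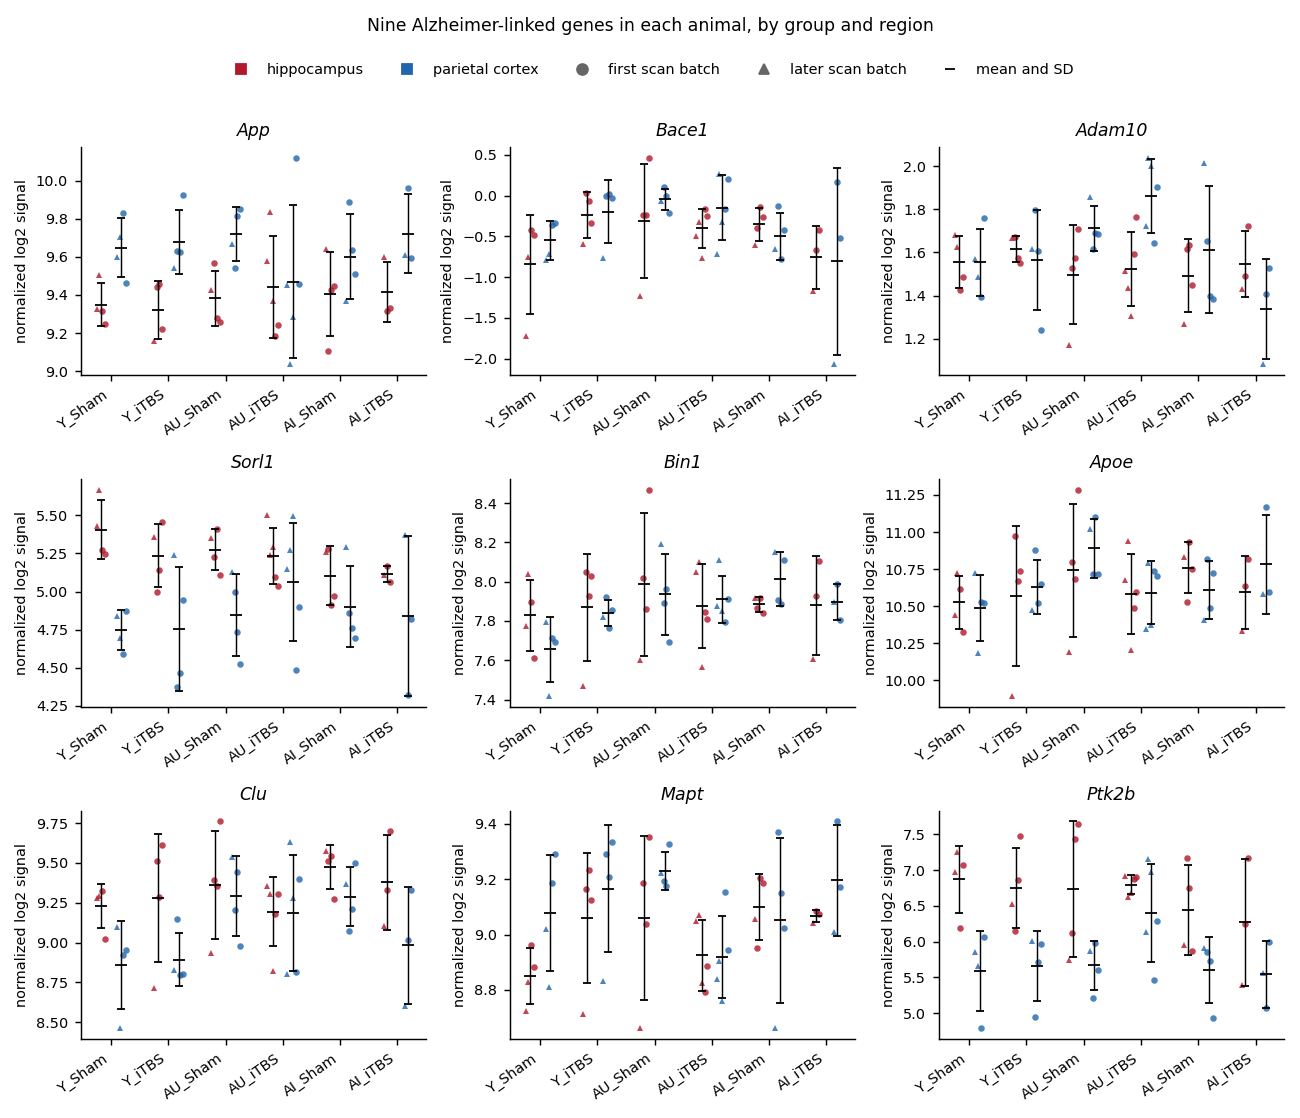
Normalized log2 signal of each gene's lead probe (vertical axis) in every animal, by group (horizontal axis), with hippocampus in red, parietal cortex in blue, circles for the first scan batch and triangles for later ones. Bars are the mean and SD of 3 to 5 animals. The 6 group means of a gene overlap within their SDs in nearly all panels, while Ptk2b and Sorl1 lie higher in hippocampus.

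Ordering the 6 groups by their mean gave 18 orders, 1 for each gene and region. In 15 of them no pair of neighbours differed by more than the pooled SD within groups. The exceptions were all in cortex. Adam10 had a gap of 0.21 between AI_iTBS and the next group, Y_Sham (SD 0.20). Bin1 had a gap of 0.19 between Y_Sham, the lowest group, and Y_iTBS (SD 0.14). Ptk2b had a gap of 0.73 between AU_Sham and AU_iTBS, the highest group (SD 0.52).

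The clearest difference was between the regions. Ptk2b was higher in hippocampus by 0.90 on the log2 scale (SE 0.13, 95% interval 0.63 to 1.17, 1.87-fold, n = 24, limma adjusted p 7.75e-06), in 20 of 24 animals. Sorl1 was higher by 0.37 (SE 0.065, 1.29-fold, limma adjusted p 7.48e-05), also in 20 of 24, and Clu by 0.24 (SE 0.081, 1.18-fold, limma adjusted p 0.02), in 17 of 24. App was lower in hippocampus by 1.19-fold, a difference of -0.25 (SE 0.082, limma adjusted p 0.0139), in 19 of 24. The difference was taken within each animal and averaged over the 6 groups. Of all 33720 probes tested, 49.5% were called in this comparison, so 4 of 9 genes called is a share near the background.

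The other 5 lead probes did not pass the threshold. Mapt differed by -0.097 (limma adjusted p 0.135), Bace1 by -0.11 (0.399), Adam10 by -0.069 (0.374), Apoe by -0.036 (0.737) and Bin1 by 0.012 (0.899). The 95% intervals were -0.20 to 0.13 for Apoe, -0.13 to 0.15 for Bin1, -0.20 to 0.059 for Adam10 and -0.33 to 0.11 for Bace1. The Apoe value depended on the scaling. It was 0.19 after quantile normalization (limma adjusted p 0.00165) and 0.19 after normexp background correction with quantile normalization (0.00134), so Apoe was called higher in hippocampus under those settings, under which App was not called. The lead Mapt probe was called lower in hippocampus within the first scan batch alone (-0.16, limma adjusted p 0.0443). The second probes disagreed in part with the lead probes. The second Mapt probe, matched to the same transcript, was lower in hippocampus (-0.27, limma adjusted p 0.0161, 21 of 24 animals), whereas the second App probe, matched to another transcript record, was not called (-0.078, limma adjusted p 0.28). The App and Mapt differences therefore depend on which probe is read.

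In young sham animals alone the same 2 genes stood apart. Ptk2b read 6.98, 7.25, 6.18 and 7.07 in the hippocampus of the 4 Y_Sham rats and 5.85, 5.66, 4.79 and 6.06 in their cortex. Sorl1 read 5.43, 5.67, 5.27 and 5.25 in hippocampus and 4.84, 4.69, 4.59 and 4.87 in cortex. In both genes every hippocampal value lay above every cortical one. The differences were 1.28 for Ptk2b (SE 0.32, 2.43-fold, limma adjusted p 0.00648) and 0.66 for Sorl1 (SE 0.16, 1.58-fold, limma adjusted p 0.00513), among 19.5% of probes called. In aged sham animals, where 26.3% of probes were called, Ptk2b was higher by 0.95 (1.93-fold, limma adjusted p 0.00314) and Sorl1 by 0.32 (1.24-fold, limma adjusted p 0.0406), each in 7 of 8 animals. The other 7 genes were not called in either comparison, with differences from -0.30 (App) to 0.37 (Clu) in young sham and from -0.27 (App) to 0.13 (Clu) in aged sham. Without any of 5 single animals (AU_Sham 3, AU_Sham 4, AI_Sham 2, AI_Sham 3 or AI_Sham 4) the aged Sorl1 difference no longer passed (limma adjusted p 0.0655 to 0.118), and without Y_Sham 2 the young one did not (0.0536).

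The size of the regional difference was not shown to depend on age or stimulation. The aged minus young sham difference was -0.33 for Ptk2b (limma adjusted p 0.835) and -0.34 for Sorl1 (unadjusted p 0.0935, limma adjusted p 0.771), in a comparison with 0.00297% of probes called, and the other 7 genes lay between -0.24 (Clu) and 0.23 (Bace1). For iTBS minus sham, 0% of probes were called in young and 0% in aged animals, and the 9 genes lay between -0.19 (Ptk2b) and 0.25 (Bace1) in young and between -0.39 (Ptk2b) and 0.10 (Adam10) in aged animals.

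The regional differences did not run evenly through the scan batches. Within the first batch Ptk2b was higher in hippocampus in 15 of 15 animals, by 0.61 to 2.04 (mean 1.22 ± 0.33, SD, n = 15). In the later batches it was higher in 5 of 9, with a mean of 0.33 ± 0.72 (SD, n = 9). Those 9 were split by age: the 3 young animals lay between 0.52 and 1.59, and the 6 aged ones between -0.53 and 0.79, with a mean of -0.050 and 2 of 6 above 0. Sorl1 followed the same division. It was higher in hippocampus in 15 of 15 animals of the first batch (mean 0.47 ± 0.22, SD), with later means of 0.56 in the 3 young and 0.0085 in the 6 aged animals. App was lower in hippocampus in 14 of 15 first-batch animals (mean -0.40), whereas the 6 aged later animals had a mean of 0.17, and Clu had means of 0.30 in the first batch and 0.086 in the later ones. All 4 animals with Ptk2b lower in hippocampus, and all 4 with Sorl1 lower, were aged and scanned later. Within the 9 later animals alone no member was called. The difference between scan batches was not tested.

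Region markers kept their direction in those 6 animals, Prox1 excepted, though not all kept their size. Klk8, a protease of hippocampal neurons, was higher in their hippocampus by 6.78 to 8.72, against 6.05 to 9.10 in the other 18 animals. Among the cortex markers, Cux2 had a mean difference of -1.62 in the 6 animals against -0.63 in the others, and Tbr1 one of -2.24 against -1.25. Zbtb20, a hippocampal marker, had 1.72 against 1.02, and Wfs1, a marker of hippocampal pyramidal cells, 1.09 against 1.67. These differences between the 6 animals and the others, and their part in the Ptk2b and Sorl1 values, were not tested. The single later animal with both regions scanned on 1 day, AU_iTBS 3, had differences of -0.29 for Ptk2b, -0.20 for Sorl1, -0.46 for Clu and 0.083 for App. Y_Sham 3 also had repeat arrays of both regions on 1 slide, on which Ptk2b was higher in hippocampus by 1.40 and 1.44, against 1.35 on the first arrays. Sorl1 gave 0.71 and 0.61 there, against 0.73. With slide as a block none of the 4 differences passed. They were 0.94 (SE 0.52, limma adjusted p 0.549) for Ptk2b, 0.33 (SE 0.33, 0.797) for Sorl1, 0.056 (SE 0.41, 0.982) for Clu and -1.08 (SE 0.31, 0.148) for App. The Ptk2b and Sorl1 values were close to those without the block and their errors were larger. Since few slides held both regions, slide and region can hardly be told apart.

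**Figure D2:**
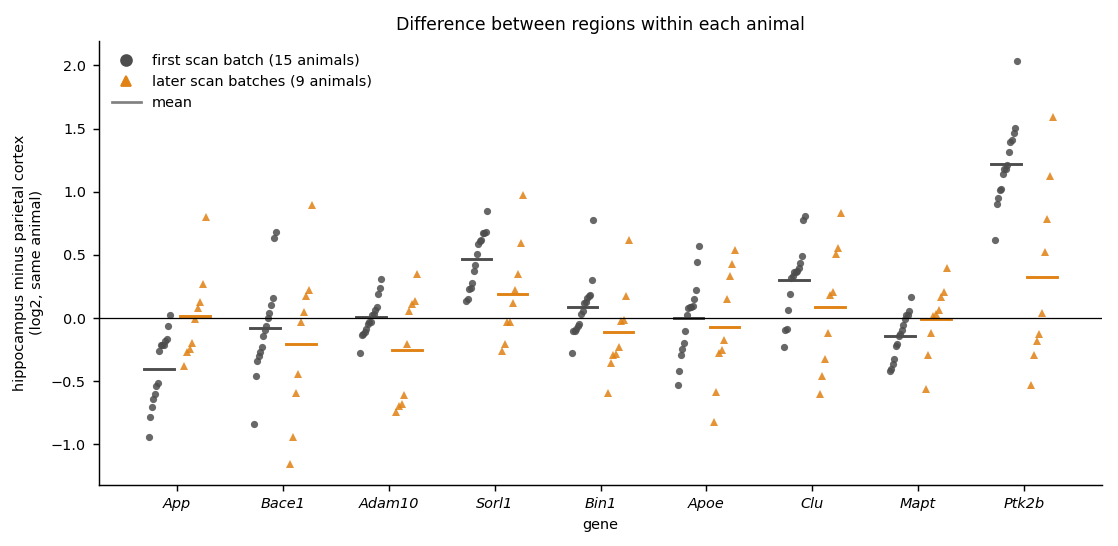
Hippocampus minus parietal cortex within each animal (vertical axis, log2) for the lead probe of each gene (horizontal axis). Circles are the 15 animals of the first scan batch and triangles the 9 of later batches, with their means as bars; Ptk2b and Sorl1 lie above 0 in 15 of 15 first-batch animals and scatter around a lower mean in the later ones.

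Markers of cell types were also compared between the regions, where 49.5% of all probes were called. All 10 oligodendrocyte markers were called between regions, 9 higher in hippocampus and Mbp lower (median difference 0.60). The mean level of that list ran from 6.83 to 7.49 in hippocampus and from 6.08 to 7.35 in cortex, and was higher in hippocampus in 22 of the 23 animals with every marker measured. Of 10 astrocyte markers 4 were called higher and 1 lower in hippocampus, with list means of 6.87 to 7.32 against 6.51 to 7.24. Of 10 neuron markers 1 was higher and 4 were lower, with list means of 5.00 to 5.50 against 5.00 to 5.80. The astrocyte and neuron counts are thus near the share over all probes. The mean of 10 microglia markers was higher in hippocampus in 18 of 23 animals. Choroid plexus markers were higher in hippocampus in 6 of 8 cases (median difference 1.28) and endothelial markers lower in 5 of 6. In tissue pieces, fewer cells of a type and less RNA per cell cannot be told apart. The part of these shifts in the Ptk2b, Sorl1, Clu and App differences was not tested.

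Age was compared in sham animals. In the cortex all 9 genes had a higher mean in aged than in young sham, with differences of 0.012 (App) to 0.43 (Clu) and a median of 0.12, but none passed the threshold, where 0.104% of probes were called. Bin1 was closest. It read 7.79, 7.42, 7.72 and 7.69 in Y_Sham, 8.19, 7.89, 7.96 and 7.69 in AU_Sham and 8.15, 7.91, 7.89 and 8.11 in AI_Sham. All 8 aged values lay above the young mean, and 7 of 8 above the highest young value. The difference was 0.32 (SE 0.10, 95% interval 0.10 to 0.54, unadjusted p 0.00569, limma adjusted p 0.353), with 0.21 within the first scan batch, 0.56 within the later ones and 0.24 without Y_Sham 2.

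Clu, the chaperone also known as apolipoprotein J, read 9.10, 8.46, 8.92 and 8.95 in the cortex of Y_Sham, 9.54, 9.20, 9.44 and 8.98 in AU_Sham and 9.37, 9.07, 9.21 and 9.50 in AI_Sham. The 8 aged values again lay above the young mean, with 2 of them below the highest young value. The difference was 0.43 (SE 0.17, unadjusted p 0.0218, limma adjusted p 0.467), and 0.30 without Y_Sham 2, the animal with the lowest Bin1 and Clu. Apoe had a difference of 0.26 (unadjusted p 0.0825). The shared direction depended partly on scaling, since 6 of 9 genes were higher in aged cortex after 75th percentile scaling and 8 of 9 after quantile normalization or with the authors' scores. None of the oligodendrocyte, astrocyte and neuron markers was called there, while their median differences were 0.22, 0.14 and 0.16, and their part in the Bin1 and Clu values was not tested.

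In hippocampus 6 of 9 genes had a higher mean in aged sham, 2 to 6 of 9 under other scalings, and 0.00308% of probes were called. The smallest p-values belonged to Bace1 at 0.51 (95% interval -0.022 to 1.05, unadjusted p 0.0594), Mapt at 0.23 (0.0554) and Sorl1 at -0.22 (0.066), with a limma adjusted p of 0.605 for each. The Mapt value is that of the lead probe. The second Mapt probe had means of 8.3255 in Y_Sham, 8.4674 in AU_Sham and 8.2607 in AI_Sham. Without Y_Sham 1 the Bace1 difference was 0.22 (unadjusted p 0.384). Its means in the first scan batch were -0.45 in Y_Sham, -0.0020 in AU_Sham and -0.27 in AI_Sham. In the later ones, with 1 animal each in AU_Sham and AI_Sham, they were -1.24, -1.23 and -0.61. Bin1 and Clu differed there by 0.11 and 0.19. The remaining genes lay between -0.28 (Ptk2b) and 0.22 (Apoe).

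None of the 9 genes was called after stimulation. Over all 14 comparisons within a region, those of age and cognitive status in sham animals included, 126 tests of the lead probes gave 0 calls. The smallest limma adjusted p was 0.353, that of Bin1 with age in cortex. In limma 5 unadjusted p-values were under 0.05, those of Bin1 and Clu with age in cortex among them. Little was called among all probes either. Young iTBS against sham, AU, the aged mean of AU and AI, and the aged minus young effect each had 0% of probes called in both regions, and AI had 0% in hippocampus and 0.00613% (2 of 32603) in cortex. Without adjustment, limma gave a p under 0.05 to 608 probes (1.88%, AI hippocampus) to 2734 probes (8.39%, AU cortex) in these comparisons. The selection rule of the study's methods was rebuilt as an alternative, some details of which the methods do not state. As rebuilt it selected 12 to 59 probes in each of 8 comparisons of iTBS with sham and 0 of the 9 genes, which does not show what the study itself selected.

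Bace1 had the largest mean difference in young hippocampus. It read -1.72, -0.75, -0.42 and -0.48 in Y_Sham and -0.59, 0.029, -0.067 and -0.33 in Y_iTBS. The groups overlapped, with 1 sham animal far below the rest. The difference was 0.60 (SE 0.30, 95% interval -0.014 to 1.22, unadjusted p 0.0549, limma adjusted p 0.93) and 0.31 without Y_Sham 1. Bace1 means were -0.45 in Y_Sham and -0.12 in Y_iTBS within the first scan batch. In the later ones, with 1 stimulated animal, they were -1.24 and -0.59. Y_Sham 3 read -0.15 on its first array and -0.56 on a technical repeat. The other 8 genes lay between -0.17 (Sorl1) and 0.21 (Mapt). The second Mapt probe had means of 8.3255 in Y_Sham and 8.3726 in Y_iTBS. In aged hippocampus the Bace1 difference was -0.25. The aged minus young effect (interaction) of Bace1 was -0.85 (SE 0.36, unadjusted p 0.0302, limma adjusted p 0.799), or -0.55 without Y_Sham 1. The other genes lay between -0.29 (Mapt) and 0.15 (Sorl1) in this interaction. The second Mapt probe, unlike the lead probe, had higher means under iTBS than sham in AU (8.5373 against 8.4674) and AI (8.3412 against 8.2607). In cortex the interaction ran from -0.56 (Bace1) to 0.26 (Ptk2b). The young effect, the interaction and the age comparison share the Y_Sham animals, so the 3 Bace1 values are not separate observations.

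In the cortex of AU animals, Mapt read 9.22, 9.19, 9.18 and 9.33 under sham and 8.84, 8.90, 8.76, 9.15 and 8.95 under iTBS. The groups did not overlap, but the first array of AU_iTBS 4, before averaging with its repeat, read 9.181, above the lowest sham value (9.1756). The difference was -0.31 (SE 0.15, unadjusted p 0.0457, limma adjusted p 0.579), and -0.53 for the second probe, but it was -0.11 after 75th percentile scaling and -0.067 after quantile normalization. In the first scan batch the lead probe had means of 9.0488 under iTBS and 9.2329 under sham, and the second probe 8.844 and 8.9197. In the later ones, with 1 sham animal, they were 8.834 and 9.2224, and 7.9729 and 8.6585. Ptk2b in the same comparison read 5.87, 5.22, 5.98 and 5.61 under sham and 6.13, 7.15, 6.97, 5.46 and 6.29 under iTBS, so 4 of 5 stimulated animals lay above every sham animal. That difference was 0.73 (SE 0.34, unadjusted p 0.0408, limma adjusted p 0.579), with 0.27 within the first scan batch and 0.88 within the later ones. The other 7 genes lay between -0.30 (Apoe) and 0.22 (Sorl1). The highest Ptk2b values belonged to AU_iTBS 2 and AU_iTBS 3, both scanned later, in which the regional difference of Ptk2b was reversed. That difference contains the same cortex value, so these are not separate observations. Astrocyte markers had a median difference of -0.38 in this comparison, 8 of 10 lower and none called, and their part was not tested.

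The remaining stimulation differences were small beside their errors. In young cortex 9 of 9 genes had a higher mean after iTBS, by 0.0073 (Sorl1) to 0.35 (Bace1), the count being 6 to 9 under the other scalings. Bin1 was at 0.19 (unadjusted p 0.134, 4 of 4 animals above the sham mean), and at 0.11 to 0.23 on leaving out each animal. The age comparison in cortex, in which 9 of 9 genes were also higher, shares the Y_Sham animals, so these are not separate observations. In AI cortex Adam10 had a difference of -0.27 (unadjusted p 0.118) and Clu one of -0.31 (0.172), the others lying between -0.31 (Bace1) and 0.17 (Apoe). In AI hippocampus Bace1 had the furthest value, -0.40 (0.223), and the others lay between -0.17 (Ptk2b) and 0.055 (Adam10). In AU hippocampus the values ran from -0.17 (Clu) to 0.063 (Ptk2b). For the aged mean of AU and AI the values ran from -0.25 (Bace1) to 0.041 (Adam10) in hippocampus and from -0.21 (Clu) to 0.33 (Ptk2b) in cortex.

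**Figure D3:**
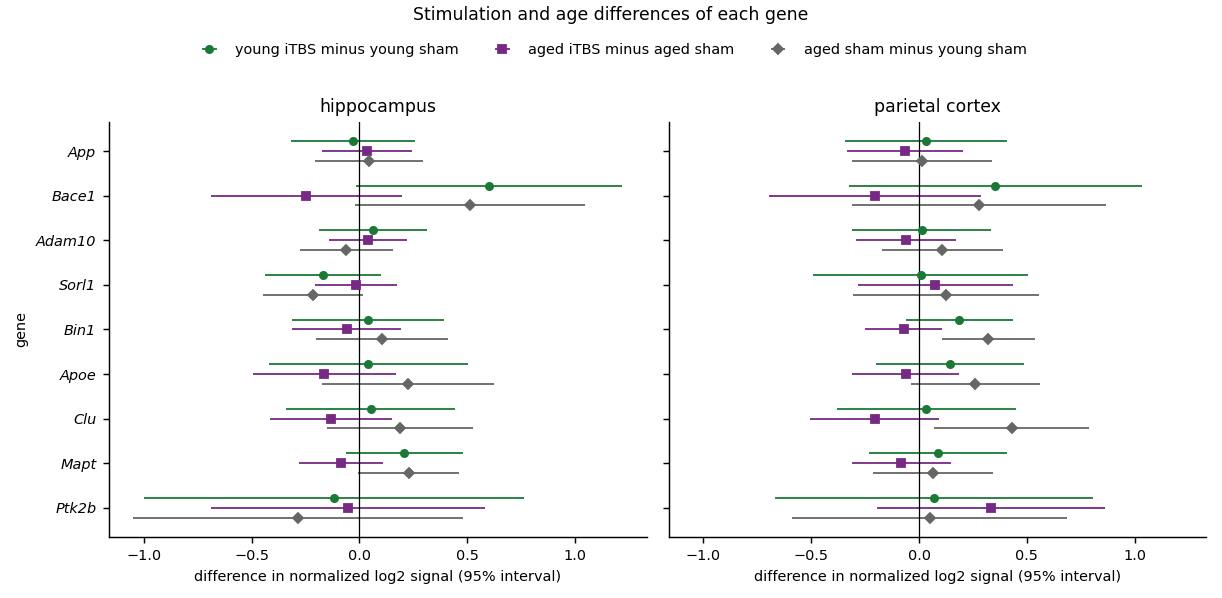
Differences in normalized log2 signal (horizontal axis) for each gene (vertical axis) in hippocampus and parietal cortex, with 95% intervals from limma. Circles are young iTBS minus young sham, squares aged iTBS minus aged sham and diamonds aged sham minus young sham; most intervals cross 0, the exceptions being Bin1 (0.10 to 0.54) and Clu (0.069 to 0.79) in aged against young sham cortex, before adjustment over all probes.

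Impaired and unimpaired aged sham animals were compared in the same fit, with 0% of probes called in either region. In cortex Apoe had the smallest p, with a difference of -0.28 (unadjusted p 0.103, limma adjusted p 0.869). Bace1 was at -0.45 (0.185), and the others lay between -0.18 (Mapt) and 0.078 (Bin1). In hippocampus Ptk2b was at -0.30 (0.493), Sorl1 at -0.17 (0.204) and Clu at 0.11 (0.549), and the others lay between -0.10 (Bin1) and 0.039 (Mapt).

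Of 72 further genes of the same pathways 65 were found on the array and 63 tested. None was called in any comparison within a region. Between regions 32 were called, again near the 49.5% of all probes. Among secretase subunits and related proteases 6 of 9 were called, 4 higher in hippocampus and 2 lower. Bace2, the homologue of Bace1, was lower (-0.58, limma adjusted p 4.33e-06), and Psenen, a gamma-secretase subunit, was higher (0.21, 0.00016). In the App family and its binding partners 2 of 7 were called, Itm2b higher (0.45, 2.7e-06) and the adaptor Apba1 lower (-0.39, 0.000479). Endosomal sorting and endocytosis had 6 of 12 called, equally divided. Vps29, a retromer subunit, was higher in 24 of 24 animals (0.59, limma adjusted p 3.37e-10), and Sorcs1, a sorting receptor of the same family as Sorl1, was lower in 23 of 24 (-0.96, 7.87e-10). Sorl1 and Sorcs1 thus differed between the regions in opposite directions.

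Lipid carriers and their receptors had 5 of 8 called, each of them higher in hippocampus, while Apoe itself was not called. Apoc1, an apolipoprotein whose gene lies beside Apoe, was higher in 24 of 24 animals (1.21, limma adjusted p 2.37e-10), as was Apod on average (0.69, 2.66e-07). Amyloid-degrading enzymes had 2 of 4 called, Ece1 lower (-0.30, 0.0343) and Ece2 higher (0.19, 0.0489). Tau kinases and microtubule-associated proteins had 7 of 13 called, 2 higher and 5 lower. Map4, a microtubule-associated protein related to tau, was higher in 24 of 24 animals (0.93, limma adjusted p 1.78e-10), and the kinase Mark2 was lower (-0.37, 1.98e-06). Microglial risk genes had 3 of 6 called, including the phosphatase Inpp5d, lower in 24 of 24 animals (-1.42, limma adjusted p 4.18e-11), and Plcg2, lower too (-0.47, 2.25e-06). The last list held other risk genes and Ptk2, the close relative of Ptk2b. Of its 4 tested genes only Ptk2 was called. It was lower in hippocampus (-0.15, limma adjusted p 0.00298), opposite to Ptk2b, while Rin3 was not called (0.21, 0.139).

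Within groups, several of the genes deviated together from animal to animal. In hippocampus Apoe and Bin1 deviations from their group means correlated with Pearson r 0.945 and Spearman rho 0.941 over 24 animals (permutation p 1e-05 for each, the smallest that 100000 permutations within groups can give, adjusted p 0.00036 and 0.00072). Clu and Bin1 gave r 0.914 and rho 0.824 (permutation p 1e-05 and 2e-05, adjusted 0.00036 and 0.00072), and Apoe and Clu r 0.896 and rho 0.844 (permutation p 6e-05 and 5e-05, adjusted 0.00144 and 0.0012). Animals with high Apoe values therefore tended to have high Clu and Bin1 values. These genes also moved together between arrays of the same hippocampus. On the first array and a technical repeat of Y_Sham 3, Apoe read 10.333 and 10.784, Clu 9.1178 and 9.5271, and Bin1 7.7983 and 8.0077. The part of such array differences in the correlations was not tested. Leaving out the 2 animals farthest from the median gave r of 0.924, 0.875 and 0.818 for these 3 pairs, and the 15 first-batch animals alone gave 0.863, 0.829 and 0.703. The later batches had too few animals with a group mate (5) for a value. In all, 72 pairs were examined, of which 12 of 36 in hippocampus and 9 of 36 in cortex had an adjusted p under 0.05. The share among pairs of other genes was not computed, so these counts are not shown to be particular to these genes.

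How far these relations held depended on the scaling of the arrays. After quantile normalization the hippocampal r was 0.605 for Apoe and Bin1, 0.646 for Apoe and Clu and 0.723 for Clu and Bin1. In cortex the same pairs gave 0.541, 0.474 and 0.691 as normalized here, and 0.859, 0.882 and 0.773 after quantile normalization. Mapt and Apoe in hippocampus gave r 0.850 and rho 0.757 (permutation p 0.0003 and 0.00029, adjusted 0.0054 and 0.00522), but -0.301 after quantile normalization, so that relation did not hold under this scaling. Bright probes of an array tended to move together in hippocampus, the region in which this was computed. Among 1168 genes with normalized signal over 7 the median r with Apoe was 0.516, and 14.6% reached 0.8. Over 12923 named genes the median was -0.0792, and 1.45% reached 0.8.

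**Figure D4:**
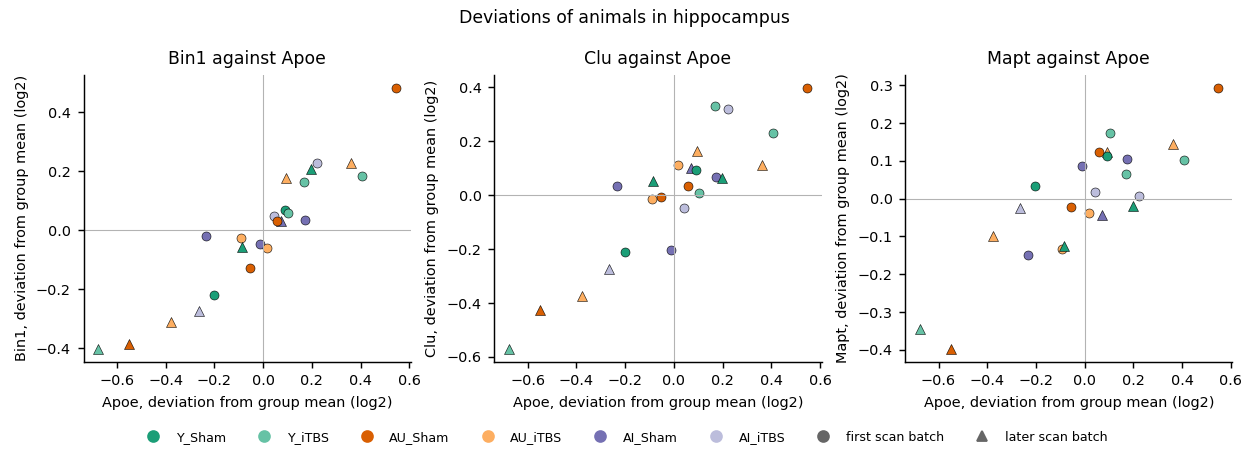
Deviation of each animal from its group mean in hippocampus (log2) for Bin1, Clu and Mapt (vertical axes) against Apoe (horizontal axes), coloured by group, with circles for the first scan batch and triangles for later ones. The points rise together in each panel (r 0.945, 0.896 and 0.850 as normalized here), and the Mapt relation turned to -0.301 after quantile normalization.

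In cortex the strongest pairs were Clu with Bin1 and Sorl1 with Ptk2b. Clu and Bin1 gave r 0.691 and rho 0.657 (permutation p 0.00072 and 0.00151, adjusted 0.00864 and 0.0155), 0.661 without the 2 farthest animals and 0.625 within the first batch. Sorl1 and Ptk2b gave r 0.643 and rho 0.667 (permutation p 0.0031 and 0.00291, adjusted 0.0203 and 0.0262), 0.621 without the 2 farthest and 0.630 within the first batch, with 0.714 after quantile normalization. The 2 genes with the larger regional differences thus also varied together within the cortex. In hippocampus the same pair gave r 0.171. With the batch means removed, however, the pair gave 0.519 in hippocampus and 0.516 in cortex. Mapt and Sorl1 in cortex ran in opposite directions (r -0.642, rho -0.587, permutation p 0.00194 and 0.00692, adjusted 0.0175 and 0.0404), but with the batch means removed r was -0.157, so the relation did not hold within batches.

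Over the 12 group means, 6 in each region, other genes followed some members closely. The values are a description over 13003 candidate genes, and much of each is the regional difference itself. Among the most alike for Ptk2b were Ubash3b (r 0.979) and Serpina11 (0.966). Those of Sorl1 were C1ql1 (0.980), Clstn2 (0.977) and Ddost (0.975). App was followed by Smg6 (0.986), Aifm2 (0.983) and Scg5 (0.982). Clu was most like Cdkn1a (0.954), Dcxr (0.936) and Csrp1 (0.923). Genes with little regional difference had looser matches. Mapt was most like Tmsb10 (0.944), Rpl41 (0.936) and Nudt8 (0.934), and Apoe most like Cst3 (0.912), Ubald1 (0.890) and Camkv (0.883). Bace1 was followed by Prpf31 (0.926), Lrrc58 (0.922) and Amigo1 (0.916), Adam10 by Cadm4 (0.909), Pik3r3 (0.909) and Ccdc92 (0.893), and Bin1 by Cog1 (0.900), Pcdhb3 (0.868) and Cuta (0.868). Cst3 encodes cystatin C, a secreted protease inhibitor, and Tmsb10 an actin-binding peptide.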

How the data were processed

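Total RNA of each tissue piece was labelled with Cy3 and read on Agilent SurePrint rat arrays (G3, version 2), 56 in all: 48 first arrays, 7 technical repeats and 1 array whose labels conflict and which entered no group. The deposited scanner files hold the processed signal intensity of each spot from Feature Extraction 12.0.3.1 per the file headers, after background subtraction by the software and with no normalization between arrays. A second deposited table holds the authors' standard score of each feature, matched here within 0.005 by the z-score of the log signal of each array.

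Flagged spots (267 to 1448 per array) were left out, copies of a probe were averaged, and log2 signal was scaled to a z-score per array, as in the study, and then multiplied here by the mean array SD (4.08) to return to log2 units. Probes, 59.3% to 69.7% of them above background per array, were named through their RefSeq accession (21109 of 45598, 46.3%). Repeats were averaged with their first array, 1 excepted. The number of arrays limits the precision, and each animal is 1 replicate. Probes detected above background in 3 or more of 24 animals were tested (32417 in hippocampus, 32603 in cortex, 33720 between regions). A model of 6 group means (18 residual degrees of freedom) was fitted per region with limma 3.58.1 in R 4.3.3, regions being compared by within-animal differences. P-values were two-sided and adjusted by Benjamini-Hochberg over all tested probes, with calls at an adjusted p under 0.05. The brightest probe of a gene over the first arrays was its lead probe. Correlations used permutations within groups (Python 3.11.15, NumPy 2.4.6).

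By the naming rule all 9 genes are given in every comparison, singly or by their range, with the 2 smallest adjusted p of each further list between regions and the 3 genes most like each member, of which 1 is not reported here. Members, lists and tests were chosen with earlier results of these data known. Alternatives were other scalings, background correction, filters, probe rules, repeats, batch, slide and replicate blocks, omission of each animal, and the rebuilt selection rule. The background alternative used the median spot signal, since the files used here hold no mean signal. The scripts were tested on simulated data. The further genes Apbb2, Lrp8, Cd33, Cass4, Mef2c, Slc24a4 and Zcwpw1 were not analysed here.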

Additional observations from a re-analysis of the deposited data

Results flagged for a closer look

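In 3 of 90 groups of 4 or 5 animals, 1 animal lay farther from the others than Dixon's 95% limit allows. Chance gives about 1 in 20 such groups, or 4.5 of 90. Bace1 in the cortex of Y_iTBS 1 read -0.7654, against -0.0289 to 0.0243 in the other 3 animals. Clu in the hippocampus of Y_Sham 4 read 9.0192, against 9.2803 to 9.3231. Clu in the cortex of Y_iTBS 2 read 9.1457, against 8.7969 to 8.828.

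In 2 of 108 pairs of stimulation effects, every animal of 1 set lay on one side of its sham mean and every animal of the other set on the opposite side. The Bace1 effect in AI hippocampus minus that in young hippocampus was -1.0048, and the Bin1 effect in AI cortex minus that in young cortex was -0.3047. Neither difference was tested. The number of such pairs expected by chance was not computed, and the pairs overlap, since the aged sets contain the AU and AI animals. In all, 45 differences between effects were tested, among them the regional difference in aged minus young sham, which involves no stimulated animal. Of these, 1 had an unadjusted p under 0.05 (Bace1, aged minus young effect in hippocampus, limma p 0.0302) and 0 passed the adjusted threshold.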

How the results depend on the processing

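In the 14 comparisons within a region 0 members were called under every alternative run. Between regions over all 24 animals, 4 members were called, 4 without any single animal, 5 with the mean of all probes of a gene or within the first scan batch (Mapt added at -0.18 and -0.16), and 0 within the later scan batch or with slide as a block (Ptk2b 0.94, Sorl1 0.33, Clu 0.056, App -1.08). In young sham animals 2 were called, with 4 after quantile normalization, 4 after normexp background correction, 1 within the first scan batch, 0 within the later one, 0 with slide as a block and 1 to 2 on leaving out each animal (1 without Y_Sham 2). In aged sham animals 2 were called, with 1 under the authors' scores, normexp, no filter, scan batch as a block or only the compared groups in the fit, 0 within the later scan batch or with slide as a block, and 1 to 2 on leaving out each animal. The Ptk2b difference in aged sham animals turned to -0.043 within the later scan batch. The App difference over all animals no longer passed after quantile normalization (-0.056, limma adjusted p 0.404) or normexp (-0.068, 0.294), and Apoe passed instead under both (0.19, limma adjusted p 0.00165 and 0.00134). The causes were not tested.

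The replicate numbers were not used to pair sham and stimulated animals. Over 22 pairs of the same number, deviations correlated at -0.282 to 0.4, with 9 above 0.1. Animals of different numbers were not compared in this way, so these values cannot decide whether the numbers pair the samples. With the replicate block the count of members called within regions was 0. Without the replicate block, that is without pairing regions by animal, 1 was called in aged sham, 2 in young sham and 4 over all animals. Bace1 did not enter the test under the filter on mean z-score, since its signal lies below the array mean.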

Other observations

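The array with conflicting labels, named by its title as a young sham animal and by its description as an aged stimulated one, gave 9.2759 for the App lead probe, -0.28051 for Bace1, 1.5934 for Adam10, 5.1162 for Sorl1, 7.8193 for Bin1, 10.509 for Apoe, 9.1153 for Clu, 8.7706 for the Mapt lead probe and 7.0069 for Ptk2b. The cortex repeat of AI_iTBS 2 that was left out read 6.17 for Ptk2b, against 5.07 on the first array of that animal.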
